A study of Caenorhabditis elegans with 2 samples.

Results

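Mitochondrial ribosomal proteins are made from nuclear genes, translated in the cytosol and imported into mitochondria, where they assemble with mitochondrial ribosomal RNA into the ribosome that translates the few proteins encoded by mitochondrial DNA. In Caenorhabditis elegans the genes are named mrpl- for the large subunit and mrps- for the small subunit. Knockdown of mrps-5 in worms is known for extending lifespan and for activating the mitochondrial unfolded protein response. The genes described here are the protein-coding genes whose symbol in the WBcel235 annotation begins with mrpl- or mrps- and a digit. There were 70 of them, 41 for the large and 29 for the small subunit, among 19973 protein-coding genes of the nuclear chromosomes.

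The data are chromatin immunoprecipitation sequencing (ChIP-seq) peak lists for ZTF-18, a zinc finger protein. The single group held 2 biological replicates of strain OP496: whole hermaphrodite young adults, collected 64 hours after synchronization as starved L1 larvae, in which ZTF-18 carried a GFP-FLAG tag at its C-terminus. An anti-GFP antibody pulled down the chromatin. The tag sits on a transgene in 1 worm line, and whole animals mix all tissues, so a peak cannot be placed in a tissue. There was no treatment, no untagged group and no second stage among the samples, so occupancy was compared between genes and not between conditions, and read depth is unknown from these lists. The labels call the samples biological replicates without naming the cultures they came from.

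The authors' lists give each peak a signal, on a scale that is not stated, and a summit. Lists were ranked by signal, with rank 1 the strongest. The thresholded list, derived from both replicates by the irreproducible discovery rate (IDR), a measure of how alike peaks rank in a pair of replicates, held 2465 peaks, of which 2449 lay on nuclear chromosomes. It equalled the 2465 strongest peaks of a relaxed list made from both replicates together, which held 30000 peaks. The relaxed lists of replicates 1 and 2 held 26104 and 27612 peaks, background peaks included. Each gene was given a window that began 1000 bp upstream and ended 200 bp downstream of its annotated 5′ end. A gene is called bound where this window held a thresholded summit, and sub-threshold where it held only a relaxed pooled summit.

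Of the 70 mitochondrial ribosomal protein genes, 17 were bound (24.3%, exact 95% interval 14.8% to 36.0%), against 8.18% of all protein-coding genes. The small subunit had 10 of 29 genes bound (34.5%, interval 17.9% to 54.3%): mrps-28, mrps-21, mrps-35, mrps-7, mrps-17, mrps-10, mrps-23, mrps-6, mrps-33 and mrps-15, from the highest to the lowest peak signal. The large subunit had 7 of 41 bound (17.1%, interval 7.15% to 32.1%): mrpl-12, mrpl-23, mrpl-15, mrpl-49, mrpl-28, mrpl-17 and mrpl-9. The intervals of both subunits overlap, and the difference between them was not tested. The intervals cover counting error only and treat genes as independent, which neighbours with the same summit are not.

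A further 45 genes (27 large, 18 small) had only sub-threshold summits, and 8 had no summit in the relaxed pooled list. With any relaxed pooled summit counted, the share was therefore 62 of 70 (88.6%), against 39% of all protein-coding genes. With the 5000 strongest pooled peaks it was 32 of 70 (45.7%), against 14.3%. Within the upper 50% of the thresholded list it was 8 of 70 (11.4%), against 4.28%. Within the upper 250 thresholded peaks only mrpl-12 had a summit, 1 of 70 (1.43%) against 1.46% of all genes, a count too small to read either way. With each gene of a close same-strand run given the window of the run's first gene, described further on, 5 of 70 (7.14%) had a summit in the upper 250, against 1.86%. The ranks of the bound genes ran from 32 to 2400 with a median of 1388, where the best peaks of all 1634 bound protein-coding genes had a median rank of 1163.

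**Figure D1:**
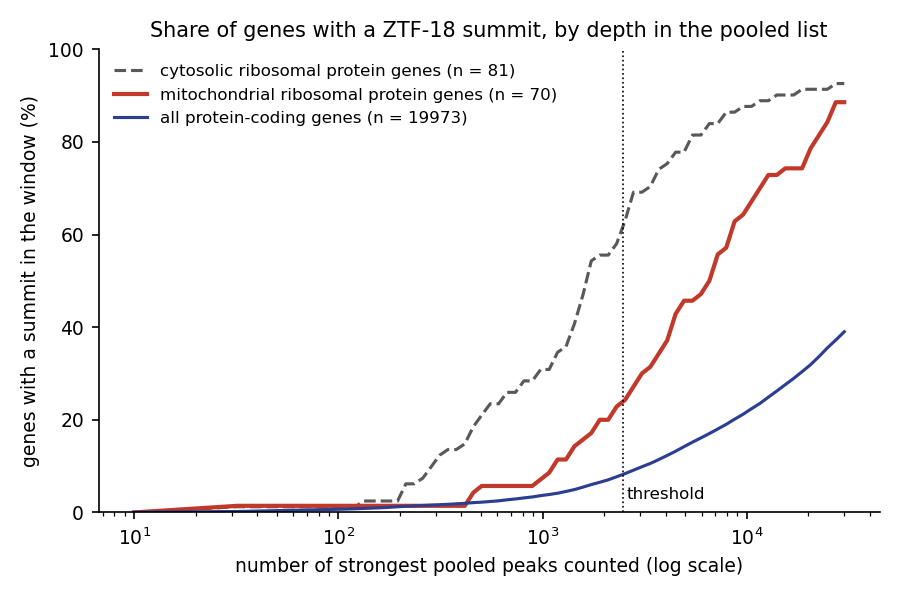
Share of genes (percent) with a summit in their window against the number of strongest relaxed pooled peaks counted (log axis), for the 70 mitochondrial ribosomal protein genes, the 81 cytosolic ribosomal protein genes and all 19973 protein-coding genes. The mitochondrial curve stays near that of all genes through the first 250 peaks and has risen to 45.7% against 14.3% at 5000 peaks, while the cytosolic curve lies above both at 5000 peaks, at 81.5%.

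The sequence under the peaks is shown for 6 of the 7 bound genes with the highest signals, on which the results turn, and for the sub-threshold genes mrpl-37 and mrpl-55, which hold letters that recur under other ZTF-18 peaks. Each run is the summit and 50 bases to either side in WBcel235 (ce11), from RefSeq, read 5′ to 3′ on the strand of the ribosomal protein gene. Capitals mark matches to either list of recurring 8-base words described after the peaks, on either strand.
mrpl-12, chrIII:10707178-10707278, plus strand: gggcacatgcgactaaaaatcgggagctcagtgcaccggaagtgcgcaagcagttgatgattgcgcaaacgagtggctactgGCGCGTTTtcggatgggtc
mrps-28, chrV:19643191-19643291, plus strand: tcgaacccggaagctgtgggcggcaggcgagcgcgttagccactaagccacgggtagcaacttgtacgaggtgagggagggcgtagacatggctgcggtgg
mrps-21, chrIV:4660462-4660562, minus strand: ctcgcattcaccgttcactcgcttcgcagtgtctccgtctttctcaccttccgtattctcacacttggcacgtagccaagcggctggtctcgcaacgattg
mrps-35, chrV:18981144-18981244, plus strand: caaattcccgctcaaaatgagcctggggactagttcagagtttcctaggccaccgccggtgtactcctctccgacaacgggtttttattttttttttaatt
mrps-7, chrIV:14767853-14767953, minus strand: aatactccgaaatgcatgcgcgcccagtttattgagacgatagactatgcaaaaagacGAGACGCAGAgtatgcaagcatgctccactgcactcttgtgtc
mrps-17, chrIII:6431887-6431987, minus strand: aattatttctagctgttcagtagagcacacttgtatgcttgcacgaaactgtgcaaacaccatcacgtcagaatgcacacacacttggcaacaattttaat
mrpl-37, chrII:13575635-13575735, minus strand: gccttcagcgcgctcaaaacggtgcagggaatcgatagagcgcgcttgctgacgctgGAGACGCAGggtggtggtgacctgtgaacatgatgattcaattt
mrpl-55, chrIV:443837-443937, plus strand: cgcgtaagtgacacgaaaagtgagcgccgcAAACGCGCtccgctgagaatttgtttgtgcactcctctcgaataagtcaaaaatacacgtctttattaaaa

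The strongest peak of the set stood upstream of mrpl-12 (WBGene00012361), whose bacterial counterpart L7/L12 forms the flexible stalk that recruits translation factors. It spanned chrIII:10706488-10707701, a width of 1214 bp, with a pooled signal of 3741 at rank 32. The signal was 2183 at rank 35 in replicate 1 and 1601 at rank 31 in replicate 2, so both libraries placed it within their first 35 peaks. Its summit was intergenic, 533 bp upstream of mrpl-12. It lay closer to the neighbouring genes Y39A1A.22 and Y39A1A.21, 200 bp and 206 bp upstream of their 5′ ends, and Y39A1A.22 faces mrpl-12 at a distance of 733 bp. The other 16 bound genes had signals from 95.6 to 351, under 10% of that of mrpl-12.

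Of those, the next 3 by signal had summits at the far edge of the window. For mrps-28 the pooled signal was 351 at rank 419, with 200.5 at rank 459 in replicate 1 and 153 at rank 431 in replicate 2. Its summit lay 998 bp upstream, inside an intron of the facing gene Y43F8C.7 and 54 bp from the snoRNA gene Y43F8C.22. For mrps-21 the pooled signal was 328 at rank 445, with 209 at rank 439 and 132 at rank 516 in replicates 1 and 2. That summit lay 995 bp upstream of mrps-21 but 311 bp upstream of F29B9.11, the gene that precedes mrps-21 on the same strand by 113 bp, and 479 bp upstream of jmjd-1.2, which encodes a histone demethylase. For mrpl-23, whose bacterial counterpart sits at the mouth of the peptide exit tunnel, the pooled signal was 303 at rank 487, with 158 at rank 590 and 137 at rank 489. Its summit lay 982 bp upstream, in an intron of fars-1, a cytosolic phenylalanyl-tRNA synthetase gene. RefSeq annotates a pseudogenic tRNA at that summit, T08B2.t1, and the snoRNA gene T08B2.13 lies 43 bp away.

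Summits this far out were few: 3 of 17 (17.6%) lay more than 900 bp upstream, against 4.28% of all bound protein-coding genes, a difference that was not tested. Of the 3 summits, those of mrps-28 and mrpl-23 were the only bound summits of the set within 150 bp of a snoRNA gene (2 of 17, 11.8%, against 103 of 2449 nuclear thresholded summits, 4.21%). None of the summits of the 45 sub-threshold genes was, a share that was not computed for other sub-threshold peaks. No annotated tRNA gene lay within 150 bp of any bound summit of the set, the nearest being 11496 bp away at mrpl-15. The pseudogenic tRNA under the mrpl-23 peak was 1 case in 17, and 10 of all 2449 nuclear thresholded summits (0.408%) lay within 150 bp of such a tRNA.

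The remaining 13 bound genes had pooled signals from 95.6 to 191 at ranks 900 to 2400. Among the small subunit genes, mrps-35 had a pooled signal of 191 (rank 900), with 106 and 82.4 in replicates 1 and 2 (ranks 1042 and 1003). Its summit lay 112 bp upstream, in the 5′ UTR of sws-1, a gene on the other strand that overlaps the start of mrps-35. For mrps-7, whose bacterial counterpart binds the 3′ domain of the small ribosomal RNA, the pooled signal was 177 (rank 1021), with 99.5 and 81.5 in the replicates (ranks 1139 and 1019). Its summit was intergenic, 173 bp upstream of mrps-7 and 298 bp upstream of the facing gene Y57G11C.3. The values of mrps-17 were 167 pooled (rank 1110), 100.1 in replicate 1 and 62.4 in replicate 2, at a summit 139 bp upstream that it shared with the facing gene txdc-9. All 3 peaks stood within the first 2465 of either replicate.

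The lower small subunit genes were closer to the threshold. For mrps-10, whose bacterial counterpart is a conserved protein of the small subunit head, the pooled signal was 143 (rank 1388), with 93.2 and 60.02 in the replicates, and the summit was 313 bp upstream, 247 bp from the facing nuclear pore gene npp-25. The peak of mrps-23 had nearly the same pooled signal, 143 (rank 1399), with 99.8 and 57.4, and lay 104 bp upstream within an intron of the splicing factor gene prp-40, which contains mrps-23 on the other strand. For mrps-6 it was 125 (rank 1677), with 71.2 and 70.9, at 329 bp upstream and 216 bp from the facing proteasome gene rpn-8. The peak of mrps-33 (100.5, rank 2244) stood at 19 bp upstream, with 47.8 and 50.7 in the replicates. That of mrps-15 (99.3, rank 2280) stood 16 bp downstream, in its own 5′ UTR, with 84.0 in replicate 1 and 27.6 in replicate 2. In the last gene the replicates were furthest apart among the bound small subunit genes, at ranks 1460 and 5625.

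Among the lower large subunit genes, mrpl-15 had a pooled signal of 160 (rank 1177), with 86.9 in replicate 1 and 75.8 in replicate 2 (ranks 1381 and 1127), at a summit 637 bp upstream that lay in no other window. The peak of mrpl-49 had 138 (rank 1473), with 78.4 and 55.7, at 169 bp upstream of mrpl-49 and 350 bp upstream of rpl-28, which encodes a cytosolic ribosomal protein. Both kinds of ribosomal protein gene thus had the same summit in their windows there. For mrpl-28 the pooled signal was 121 (rank 1760), with 59.7 and 62.04, at 106 bp upstream. For mrpl-17 it was 115.3 (rank 1883), with 87.8 in replicate 1 and 25.7 in replicate 2, at 123 bp upstream and 299 bp from the facing gene vbh-1. For mrpl-9 it was 95.6 (rank 2400), with 41.2 and 48.7, and the summit lay 157 bp downstream in its own coding sequence, 513 bp upstream of the facing gene kin-3, a casein kinase 2 subunit. Among the bound large subunit genes the replicate ranks differed most for mrpl-17, at 1366 and 6442.

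**Figure D2:**
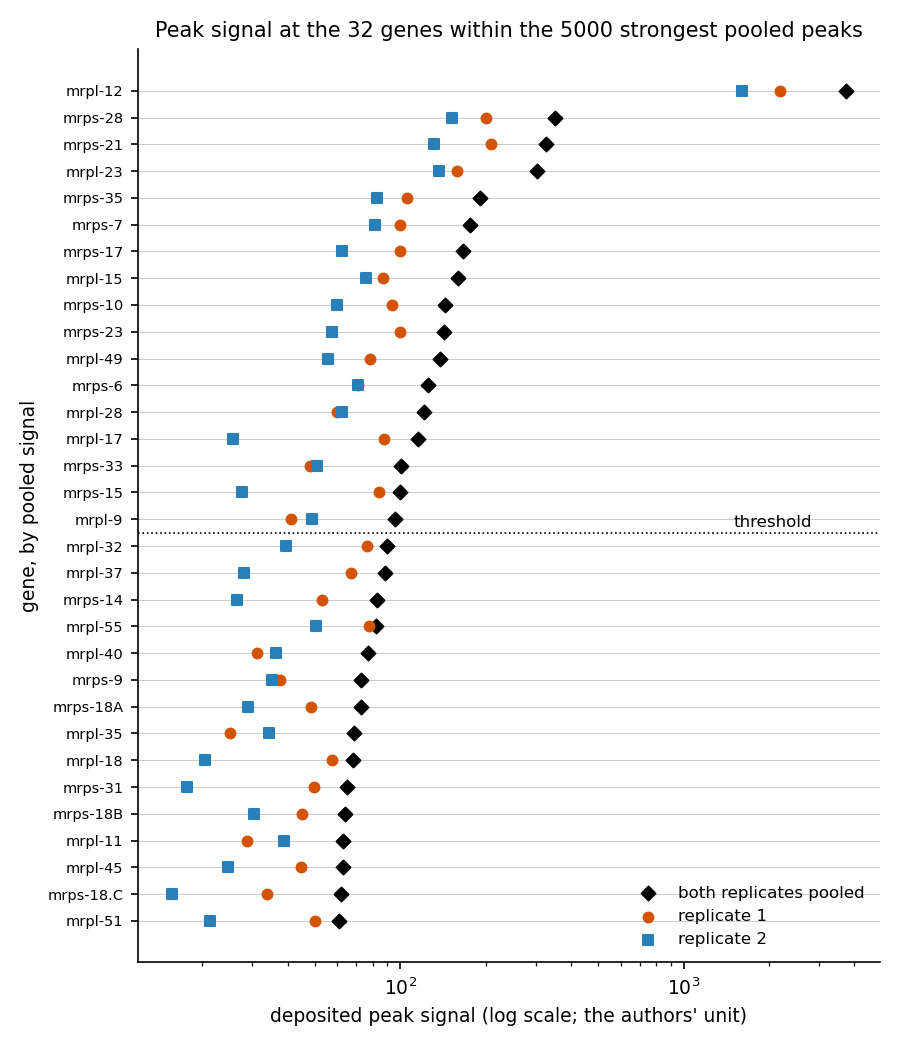
Authors' peak signal (log axis, scale not stated) of the 32 genes with a summit among the 5000 strongest pooled peaks, in the pooled list and in replicates 1 and 2, ordered by pooled signal, with a dotted line between bound and sub-threshold genes. The pooled signal of mrpl-12 lies at 3741, and those of the other bound genes between 95.6 and 351.

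All 17 summits fell inside a peak of each replicate's relaxed list, with the replicate summit a median of 19 bp away in replicate 1 and 13 bp in replicate 2, and at most 225 bp and 69 bp. Counted within the 2465 strongest peaks of a replicate, the peak at the summit was present for 15 of 17 in replicate 1, 15 in replicate 2 and 13 in both. The exceptions were mrps-33 and mrpl-9 in replicate 1, at ranks 3336 and 4214, and mrpl-17 and mrps-15 in replicate 2, at ranks 6442 and 5625. With overlap of peaks required instead, the same 13 of 17 were kept, and 1242 of all 1634 bound protein-coding genes. The thresholded list derives from both replicates, so presence in each is partly built into these counts. Taking each replicate's own 2465 strongest summits in the windows, 17 of the 70 genes (24.3%) had 1 in replicate 1, against 7.85% of all genes, and 15 (21.4%) in replicate 2, against 7.82%. Each of these sets left out mrps-28, whose replicate summits of that peak fell just outside the window, and each took in mrpl-55. Replicate 1 alone also took in mrpl-32 and mrpl-37. Across the 47 genes with a pooled summit and a peak there in both replicates, Spearman's rho of the replicate ranks was 0.667, given as a description, since both peaks were found through the pooled list.

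**Figure D3:**
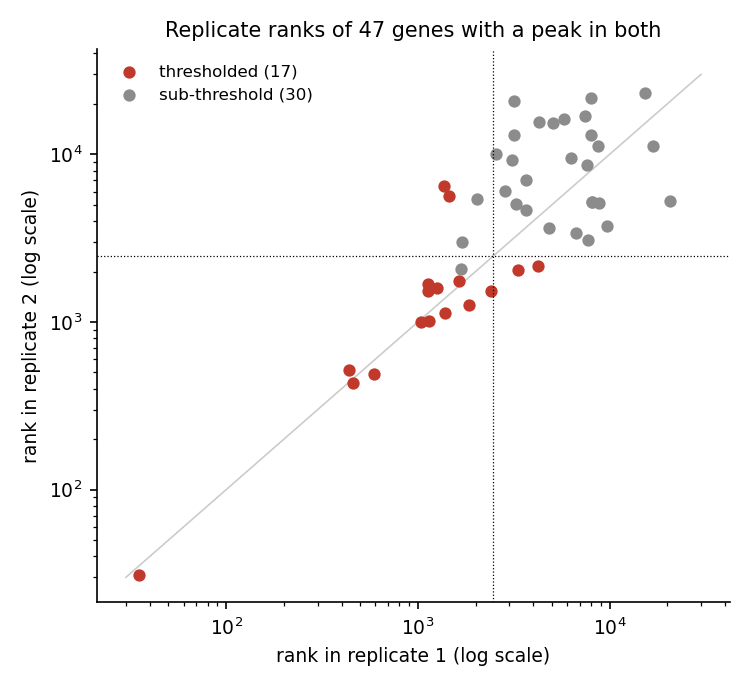
Rank of the peak at each gene's best pooled summit in replicate 1 and in replicate 2 (both log axes, rank 1 the strongest), for the 47 mitochondrial ribosomal protein genes with a peak there in both, bound and sub-threshold marked apart. Bound genes lie within the first 2465 of both replicates for 13 of 17, and mrpl-12 stands alone within the first 35.

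Just below the threshold the signal does not drop: the last thresholded peak had 93.5672 and the next pooled peak 93.5666. On the bound side the nearest genes were mrpl-9 (95.6, rank 2400) and mrps-15 (99.3, rank 2280). On the other side they were mrpl-32 at 89.6 (rank 2625) and mrpl-37 at 88.6 (rank 2666). In replicates 1 and 2 the peak of mrpl-32 ranked 1700 and 2997, and that of mrpl-37 ranked 2035 and 5406. The next were mrps-14 (82.5, rank 2955), with its summit at the annotated 5′ end itself, and mrpl-55 (82.4, rank 2959), whose replicate peaks at ranks 1673 and 2067 were both within the first 2465. These 4 sub-threshold genes had the same −log10 q of 2.78 as every bound gene, the highest value in the list, which 3291 pooled peaks shared.

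A further 11 sub-threshold genes stood within the first 5000 pooled peaks, at ranks 3297 to 4643 and with signals from 76.7 down to 60.7. From the highest they were mrpl-40, mrps-9, mrps-18A, mrpl-35, mrpl-18, mrps-31, mrps-18B, mrpl-11, mrpl-45, mrps-18.C and mrpl-51. The bacterial counterpart of mrpl-11 sits at the base of the same stalk as that of mrpl-12, and its peak here had a pooled signal of 63.0 (rank 4392), with 28.8 and 38.8 in the replicates. All 15 sub-threshold genes within the first 5000 had a peak at the summit in both replicates, with a −log10 q from 1.82 to 2.78. Of the 30 beyond rank 5000, 15 had a peak at the summit in both replicates, and their pooled signals ran from 52.5 down to 19.9 at mrpl-46 (rank 26066). Among them, mrpl-1 and mrps-24, which face each other at 344 bp, had the same summit in both windows, at rank 7187. A large and a small subunit gene there had 1 relaxed peak between them. Presence in both replicates was not counted for other genes at these ranks, and the pooled list is made from both replicates. The counts of genes with a peak in both are therefore not read as particular to the set.

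The gene mrps-5 was not bound. Its best pooled summit lay 869 bp upstream with a signal of 35.0 at rank 11673. Replicate 1 had a peak there at rank 6301 and replicate 2 had none, although replicate 2 had another summit in the window at rank 5160. The gene mrps-12, whose bacterial counterpart lies at the decoding centre, had a best pooled signal of 25.5 at rank 19159. The 8 genes with no pooled summit were mrpl-2, mrpl-4, mrpl-21, mrpl-24, mrpl-30, mrpl-47, mrpl-53 and mrps-26. None of them had a summit in the window in replicate 1, and 4 had one in replicate 2, the strongest at rank 8854 for mrpl-47. Relaxed lists hold background peaks by construction, so presence low in these lists does not separate occupancy from background.

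Most bound genes had the summit a short way upstream. The median position was 169 bp upstream of the 5′ end, against 250 bp for all bound protein-coding genes, and 9 of 17 summits lay from 100 to 400 bp upstream, where 51.0% of all bound genes had theirs. By annotation 11 summits were intergenic, 3 lay in an intron of another gene, 2 in a 5′ UTR and 1 in a coding exon. Because trans-splicing is common in C. elegans, transcription may start upstream of the annotated end. Peak widths ran from 158 to 1214 bp, and 10 of the 17 peaks had a width of exactly 510 bp.

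**Figure D4:**
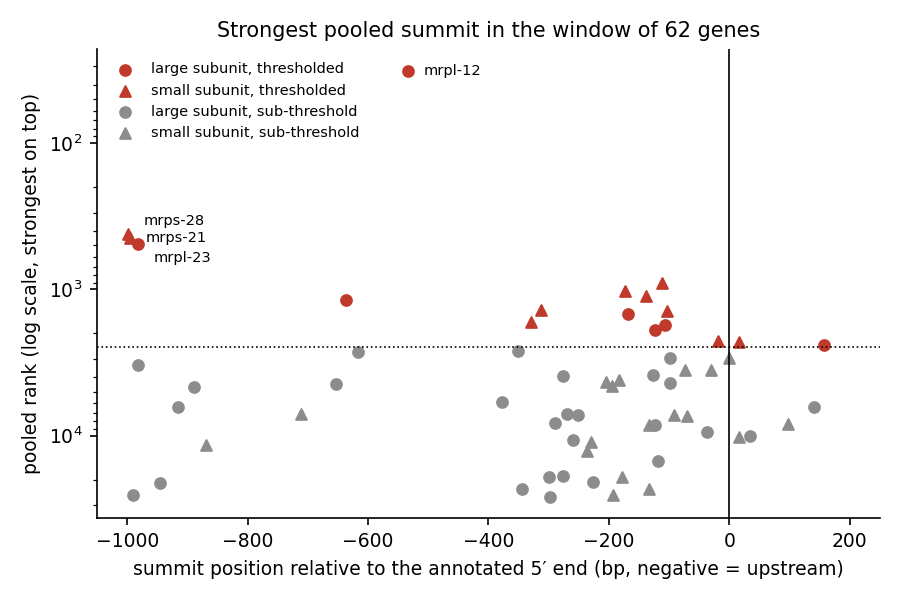
Pooled rank of the strongest summit in the window (log axis, strongest on top) against its position relative to the annotated 5′ end (bp, negative upstream) for the 17 bound and 45 sub-threshold genes, by subunit. Of the bound genes, 9 lie from 100 to 400 bp upstream and 3 lie more than 900 bp upstream.

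The chromosomes differ in how many genes were bound, and the mitochondrial ribosomal protein genes are spread unevenly over them. They numbered 22 on chromosome III, which carried 31.4% of them and 13.2% of all protein-coding genes, 12 on II, 11 on IV and 10 on V, with the other 15 on I and 0 on X. On chromosome III 4 were bound (18.2%) where 12.9% of all its genes were. On II it was 1 (8.33%, against 7.89%), on IV 3 (27.3%, against 7.38%), and on V 3 (30%, against 5.57%). On chromosome I 6 were bound (40%), where 12.2% of its genes were. Among all 17242 autosomal protein-coding genes 8.60% were bound, so leaving out X, which held none of the set, moved the background little.

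Mitochondrial ribosomal protein genes lie close to other genes more often than most, which bears on whose summit is counted. Of the 70, 25 (35.7%) face an opposite-strand 5′ end within 1000 bp and do not follow a gene closely, against 17.4% of all protein-coding genes. A further 28 (40%) follow a same-strand gene by under 500 bp or overlap it, against 20.05%. Overlaps were counted whatever their extent, so mrpl-44 is included though its 5′ end is also that of mccc-2. The other 17 (24.3%, against 62.5%) do neither. Within the facing class 10 of 25 genes were bound (40%), where 20.03% of all facing genes were. In the class with neither neighbour 4 of 17 were bound (23.5%, against 5.18%), namely mrps-35, mrpl-15, mrps-23 and mrpl-28. Behind a same-strand gene 3 of 28 were bound (10.7%, against 7.24%), namely mrps-21, mrpl-23 and mrps-33. The last count is near the background share and is not read as a difference, and none of the 3 classes was tested.

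In 11 of the 17 bound genes (64.7%) the summit also lay in the window of another protein-coding gene, against 52.3% of all bound genes. The lists cannot assign such a summit to either gene. The ribosomal protein gene had the nearest protein-coding 5′ end for 12 of the 17 summits. Counting only the gene with that nearest end, 12 of 70 (17.1%) were bound, 6 in each subunit, against 6.02% of all genes. The 5 that went were mrpl-12, mrps-28, mrps-21, mrps-10 and mrps-6. So 3 of the 4 strongest peaks of the set lay nearer to the 5′ end of another protein-coding gene. Of the 6 whose summit lay in no other window, mrps-35, mrpl-15, mrps-23, mrpl-28 and mrpl-23 also had the nearest protein-coding 5′ end. For mrpl-23 that end was 982 bp away, and the pseudogenic tRNA and the snoRNA gene described above lay closer.

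Genes in close same-strand runs are often transcribed together as operons in C. elegans, from a promoter before the first gene. No operon annotation was used, so a gap under 500 bp, or an overlap, stands in for it. With every gene in such a run given the 5′ end of the run's first gene, 25 of the 70 (35.7%) were bound, against 10.1% of all genes. Among the 28 behind a same-strand gene, 11 (39.3%) had a bound first gene, against 16.6% of all 4004 genes in that position. This took in mrpl-32, mrpl-41, mrpl-48, mrpl-54, mrps-11, mrps-14, mrps-18.C, mrps-26 and mrps-30. It lost mrpl-23, whose first gene fars-1 had no pooled summit in the window at its own 5′ end. The small subunit then had 15 of 29 genes bound and the large subunit 10 of 41.

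Several of the first genes had far stronger peaks than the ribosomal protein genes themselves. The run of mrps-14 starts at nrde-2, a nuclear RNA interference gene, with a pooled signal of 2971 (rank 54) and replicate signals of 1785 and 1269. That summit lay 928 bp upstream of nrde-2 and 425 bp upstream of atad-3, which encodes a mitochondrial inner membrane protein. The run of mrps-33 starts at F21D5.7, with 2133, and 1304 and 859 in the replicates. The run of mrps-11 starts at W04D2.4, with 1738 (rank 138), and 1083 and 706. The run of mrpl-41 starts at misc-1, a mitochondrial carrier gene, with 1585 (rank 151), and 972 and 655. That summit lay 813 bp upstream of misc-1, in an intron of B0432.10, whose 5′ end was nearer at 463 bp. All 4 summits stood within the first 250 peaks of the pooled list and of both replicates.

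With the first gene counted, 5 of the 70 (7.14%) had a summit among the upper 250 peaks, against 1.86% of all genes: these 4 and mrpl-12. Behind a same-strand gene it was 4 of 28 (14.3%), against 3.47% of all genes in that position. The other first genes were weaker: vps-37 before mrpl-48 (179, rank 996), clsp-1 before mrpl-54 (153, rank 1254), T14B4.3 before mrps-18.C (126, rank 1657), rpn-3 before mrpl-32 (117, rank 1858), atp-2, the beta subunit of the mitochondrial ATP synthase, before mrps-26 (104, rank 2143), and eif-3.E before mrps-30 (103, rank 2181). The summit of clsp-1 lay in the 5′ UTR of eef-2 and that of rpn-3 in a coding exon of hsp-110, and both were nearer to the 5′ ends of those genes. The run of mrps-5 starts at sel-1, which had a sub-threshold peak of 69.2 (rank 3823).

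Recurring letters under ZTF-18 peaks were found by counting 8-base words within 50 bp of the summit and in flanks of the same length on either side. Under the 93 of the 100 strongest thresholded peaks that lay at no mitochondrial ribosomal protein gene and on a nuclear chromosome, the leading word was GCGCCAGC, in 50.5% of peaks and 0% of flanks. It overlaps the next words CTGGCGCA and CGCCAGCA, and AAACGCGC and CGCGTTTC completed the first 5. None of the first 3 words stood in any of the 17 bound summits, and GCGCCAGC stood in none of the 70 gene windows, where 1.55% of all protein-coding windows and 4.86% of all summits held it. The word AAACGCGC stood under the bound peaks of mrpl-12 and mrpl-15 and the sub-threshold peak of mrpl-55. With any of the 5 words counted, this was 2 of 17 bound summits (11.8%), against 10.7% of all 2449 summits.

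Under the 1801 thresholded peaks beyond rank 250 that lay at none of these genes and had no tRNA gene within 150 bp, the leading word was AGACGCAG, in 7.22% of peaks and 0.611% of flanks. It overlaps GAGACGCA and GACGCAGA, and AGAGACGC and AGAGAGTG were the other 2 of the first 5. All 3 overlapping words stood under mrps-7, the only bound gene of the set with any of the 5. For AGACGCAG alone this was 1 of 17 (5.88%), against 5.92% of all summits. With any of the 5 words counted it was again 1 of 17, against 10.4%. Among the 45 sub-threshold genes, summits with 1 or more of the 5 words were those of mrpl-37, mrpl-35 and mrpl-20 (6.67%). All thresholded summits held them at 10.4%, and no share over other sub-threshold peaks was computed. The shares of both lists of words under these genes were close to, or below, those under peaks at large. Peaks at large include those in which the words were chosen for being frequent, while peaks at these genes were left out of that choice. The comparison therefore favours peaks at large, and no conclusion is drawn from it. The lists of words were chosen after the peaks had been seen, and absence of these letters from a window says nothing on binding by ZTF-18.

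The letters GTTCGANNC, sought on both strands as a usual form of the B box, an internal promoter element of tRNA genes, stood within 100 bp of 70.5% of the 396 thresholded summits near a tRNA gene and of 72 of the 2053 others (3.51%). Of the 17 bound summits, those of mrps-28 and mrpl-9 had them (11.8%), with no annotated tRNA gene near either. Among the summits of the 45 sub-threshold genes none had them, and other sub-threshold peaks were not counted. The match was sought in a wider window than the sequence printed above. In all protein-coding windows, which are longer, the share was 7.58%. The GC content within 50 bp of the 17 bound summits had a median of 47.5%, as did all thresholded summits, and ran from 32.7% at mrps-33 to 64.4% at mrps-28.

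Other genes that make mitochondrial translation work were bound at shares whose intervals overlap that of the ribosomal protein genes. Against 8.18% of all genes, 3 of 9 genes for mitochondrial translation factors and ribosome-associated proteins were bound (33.3%, interval 7.49% to 70.1%). They were mma-1, a LRPPRC relative (224, rank 708), tufm-2, an elongation factor Tu (150, rank 1294), and gfm-1, elongation factor G (132, rank 1561). The summit of mma-1 lay 729 bp upstream, in a coding exon of ril-2. That of tufm-2 lay 171 bp upstream, at the 5′ end of the facing gene exoc-7. The gene dap-3, which encodes a GTP-binding protein of the small subunit outside the naming rule, was sub-threshold at rank 7133. Of 11 synthetase genes with a name ending in ars-2, which mostly charge mitochondrial tRNAs, 2 were bound (18.2%, interval 2.28% to 51.8%): ears-2 (193, rank 897) and sars-2 (128, rank 1634). Both intervals include the share of all genes. The 15 genes of mitochondrial protein import were those with symbols beginning tomm-, timm- or tin- and a digit, with ddp-1 and hsp-6 added by name. Of these, 5 were bound (33.3%, interval 11.8% to 61.6%). The upper 250 peaks, where 1.46% of all genes had a summit, held 4 of the 5: ddp-1 (5643, rank 9), tomm-20 (3852, rank 31), timm-17B.1 (2386, rank 82) and tin-9.1 (1438, rank 167). Import genes, with ddp-1 included, thus reached the top of the list at 4 of 15. The ribosomal protein genes did at 1 of 70, or at 5 of 70 with the first gene of a run counted. That first-gene count was not made for import genes, and the difference was not tested.

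Genes for the cytosolic ribosome were bound more often, 50 of 81 (61.7%, interval 50.3% to 72.3%). With every summit in a window counted, that interval does not overlap that of the mitochondrial ribosomal protein genes. Counting only the nearest protein-coding 5′ end, the shares were 28 of 81 (34.6%) and 12 of 70 (17.1%), against 6.02% of all genes. No intervals were computed for those counts. With the first gene of a run counted, the shares were 61.7% and 35.7%, against 10.1%. Within the first 5000 pooled peaks the shares were 81.5% and 45.7%. With any pooled summit they were 92.6% and 88.6%, in a list that holds background peaks and in which few genes of either set lack a summit. Among bound genes the median rank was 1000.5 for the cytosolic and 1388 for the mitochondrial ribosome. Only 11.1% of the cytosolic ribosomal protein genes follow a same-strand gene closely, where 40% of the mitochondrial ones do.

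**Figure D5:**
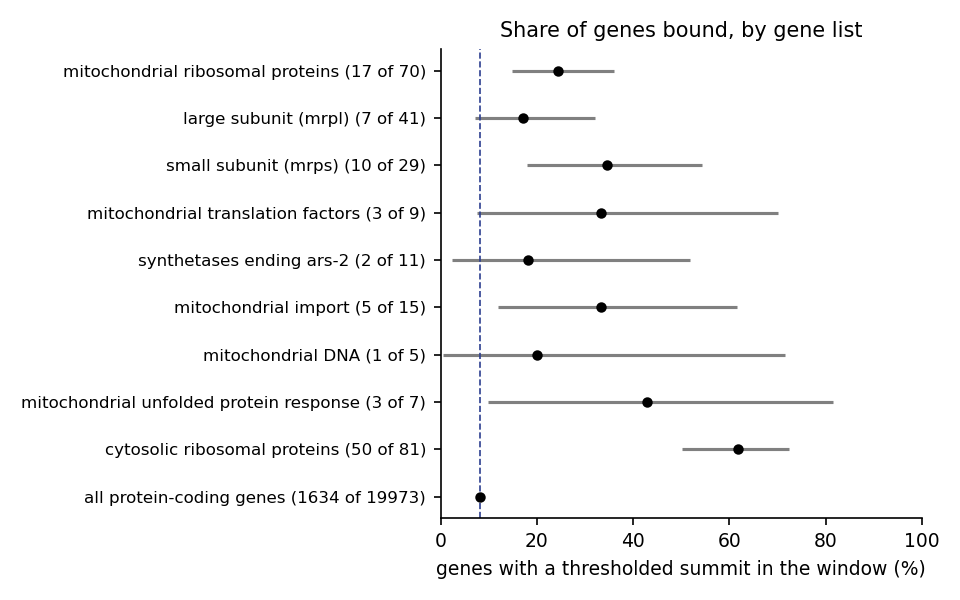
Percent of genes bound in each list, with exact 95% intervals (counting error only), beside the share of all protein-coding genes, 8.18%. The mitochondrial ribosomal protein genes lie at 24.3%, the small subunit at 34.5%, the large subunit at 17.1% and the cytosolic ribosomal protein genes at 61.7%.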

How the data were processed

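Both samples were whole-animal ChIP-seq libraries. The authors deposited peak lists on ce11 whose signal, on an unstated scale, ranks the peaks, and whose −log10 q value and summit belong to each peak. Per the file headers these lists derive from read alignments and a control alignment. No source used here names the caller, the aligner or the threshold, depth is unknown, and ce10 lists were not used. Replicates were combined by the authors in the pooled and thresholded lists, so no value there has a spread.

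Summits were joined to WBcel235 gene models of release 115, the same build as ce11, and sequences were read from RefSeq's copy of it. Shares have exact Clopper-Pearson 95% intervals for counting error. No test was run, since there is 1 group. The 13 alternatives changed the list, the window or the assignment of summits. The members, the companion lists and the words were chosen with earlier results of these data known, and the distances to snoRNA genes and the run-first count in the upper 250 peaks were added last.

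Named genes were every bound gene, every sub-threshold gene within the first 5000, the 2 nearest the threshold on either side, mrps-5, and up to 4 bound companions a list. The genes hsp-6, mrps-12, dap-3, mrpl-1, mrps-24, mrpl-20 and mrpl-46, the unbound companions, the genes without a summit, the run-first genes and neighbours of named summits were named in addition. Tested on simulated data, the join recovered 200 of 200 planted genes among 19973. Python 3.11.15, numpy 2.4.6, pandas 2.3.3 and scipy 1.17.1 were used.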

Additional observations from a re-analysis of the deposited data

How the results depend on the processing

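Of the 75 counts, shares and positions recomputed under alternatives, 54 stayed close to the reported value, within 1.5 times of it for counts. With the upper 50% of the thresholded peaks, 8 genes were bound (3 large, 5 small), with 4.28% of all genes, 9 companions and a median position of 585 bp. With the upper 250 it was 1 (1 large, 0 small), 1.46%, 4 companions and 533 bp. With all relaxed pooled peaks it was 62 (34 large, 28 small), 39.0% and 38 companions. A window of 500 bp upstream to 100 bp downstream left 11 genes, 3 of them large, having dropped summits outside it. Counting the nearest 5′ end only left 6 small subunit genes. Peaks within the strongest of both replicates moved the median position to 313 bp. Using 1 replicate's list alone gave 15 to 17 bound genes, 7 to 9 large, 8 to 8 small, 7.82% to 7.85% of all genes, 12 to 16 companions and a median of 169 to 173 bp. Extending the window to 2000 bp added mrpl-48 and mrps-18.C. The share of the set divided by that of all genes ran from 2.27 to 3.55 over these alternatives except the upper 250 peaks. There it was 0.977 and rested on 1 gene, a count too small to read either way. With the first gene of a run counted in the upper 250, the shares were 7.14% of the set and 1.86% of all genes. The median position was not computed for every transcript's 5′ end, for the first gene of a run or for interval overlap. No paired analysis was possible because there is 1 group and no comparison between groups. Depth is unknown from the lists, so how many of the genes without a peak lay under the detection limit cannot be told.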

Other observations

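Genes of the mitochondrial unfolded protein response, which knockdown of mitochondrial ribosomal protein genes is known to activate in worms, were bound in 3 of 7 cases (42.9%, interval 9.90% to 81.6%, against 8.18% of all genes). They were hsp-60, a mitochondrial chaperonin (262, rank 575), atfs-1, the transcription factor of the response (245, rank 621), and ubl-5, a ubiquitin-like cofactor (106, rank 2104). The summit counted for hsp-60 lay 660 bp upstream of it but 153 bp upstream of the facing gene Y22D7AL.10. Counting only the nearest protein-coding 5′ end, 2 of 7 were bound (28.6%), against 6.02% of all genes. The summit of atfs-1 lay 82 bp upstream of its 5′ end, with signals of 137 and 124 in replicates 1 and 2. The mitochondrial chaperone gene hsp-6, listed with import, was bound as well (149, rank 1304). That summit lay 393 bp upstream of hsp-6 but 207 bp upstream of the facing gene C37H5.5. The genes lonp-1 and dve-1 were sub-threshold at ranks 6798 and 11248, and clpp-1 and haf-1 had no pooled summit.

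Of 5 genes for mitochondrial DNA upkeep and transcription, 1 was bound (20%, interval 0.505% to 71.6%, which includes the 8.18% of all genes): mtss-1, a single-stranded DNA binding protein (183, rank 962). The mitochondrial RNA polymerase gene rpom-1 and the DNA polymerase gene polg-1 were sub-threshold at ranks 5164 and 12521. With 5 and 7 genes, neither share can be placed above or below that of the mitochondrial ribosomal protein genes.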
